A study of Homo sapiens with 6 samples.

Results

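The respiratory chain was followed here through 108 genes, out of 16910 gene rows, in RNA-seq libraries of TOV21G, a line established from an ovarian clear cell carcinoma. The members were taken by symbol: the NDUF subunits and complex I assembly factors, the SDH subunits, the UQCR genes with CYC1, the COX4 to COX8 genes, the ATP5 genes, and every row of the mitochondrial genome. Of the 108, 95 are encoded in the nucleus and 13 in mitochondrial DNA. The nuclear members comprise 78 subunits (37 of complex I, 4 of complex II, 9 of complex III, 11 of complex IV and 17 of complex V), 8 complex I assembly factors and 9 others, which are minor isoforms, readthrough genes, COX7A2L and the ATP synthase inhibitor ATP5IF1. NDUFA4 was counted with complex IV, where its protein is now placed.

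The series holds 6 libraries in 3 groups of 2. NC libraries carry the genotype label WT, siGYS1 libraries carry a knockdown of GYS1, the muscle-type glycogen synthase, and sip53 libraries carry a knockdown of p53. All 6 come from this single line, and the series names GYS1 function in it as the question. The labels do not spell out NC, and they do not say whether replicates were separate cultures, so p-values measure only the spread between these libraries. In bulk RNA of this kind, fewer cells of a type and less RNA per cell cannot be told apart.

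Electrons from NADH enter the chain at complex I (NADH dehydrogenase) and those from succinate at complex II (succinate dehydrogenase), which is also an enzyme of the citric acid cycle. They pass through coenzyme Q to complex III, through cytochrome c to complex IV (cytochrome c oxidase) and on to oxygen, and the proton gradient made on the way drives ATP synthesis at complex V. Complexes I, III, IV and V combine subunits of both genomes, while all complex II subunits are nuclear. Mitochondrial mRNAs are cut from long transcripts of the circular genome, so their levels depend on processing and stability as well as on transcription.

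Read counts summed to between 17425000 and 18097337 per library. GYS1 stood at 28.57 and 27.26 FPKM in the NC libraries, 1.69 and 1.67 in the siGYS1 libraries and 30.38 and 31.39 in the sip53 libraries. The fitted level left by siGYS1 was 6.29% of NC. NAPSA, a marker of this tumour type, was at 0.47 FPKM or less. Of the 5 epithelial markers, KRT8 and KRT18 were above 128 FPKM in every library, while EPCAM, KRT19 and CDH1 reached 4.97, 1.89 and 2.14 FPKM at most. KRT8, KRT18 and KRT19 fell with siGYS1, and KRT8, EPCAM and CDH1 with sip53 (log2 fold changes -1.52 to -0.49 and -1.54 to -0.40, adjusted p 0.000175 to 0.0168). The summed leukocyte markers with a row (3 of 5) reached 1.32 FPKM at most and the endothelial ones (3 of 4) 1.53. The 5 fibroblast markers, mostly COL1A2, summed to 177.3 and 176.4 FPKM with NC, 154.6 and 144.7 with siGYS1, and 92.3 and 92.77 with sip53. One of them, DCN, was at 0.31 FPKM in NC replicate 1 and 6.97 in NC replicate 2, 0.24 and 0.33 in the siGYS1 libraries and 4.47 and 3.12 in the sip53 libraries. Its read counts, fitted with edgeR, gave another picture. They rose with sip53 against NC (log2 fold change 4.23, SE 0.40, adjusted p = 2.88e-05) and did not pass with siGYS1 (0.57, adjusted p = 0.569). The FPKM of DCN in NC replicate 2 is therefore not a safe measure of its level there. The part of these markers in the results was not tested.

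Respiratory chain transcripts were abundant in all libraries. Mitochondrially encoded mRNAs took 4.81% to 6.0% of all reads, and the nuclear members together took 0.813% to 1.13%. Among nuclear subunits in the NC libraries, the lowest FPKM was that of NDUFV3, a small accessory subunit of complex I (8.30 ± 0.474 FPKM, SD, n = 2), and the highest that of ATP5MF, a membrane subunit of ATP synthase (1185 ± 238 FPKM). The median over the 78 subunits was 201 FPKM. FPKM depends on the effective length used by the authors, which is very small for short mRNAs. The length implied by the FPKM ran from 45 to 4984 bases over the 78 subunits, so this ranking depends on that length as well as on reads. Comparisons below therefore use CPM for each gene across libraries. This is the share of a library's reads, scaled with edgeR's TMM factors and called normalised CPM.

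The tissue-specific forms were close to silent. COX4I1, the common form of the complex IV subunit 4, was at 592 ± 73.2 FPKM with NC, while COX4I2 was at 0.145. COX6B1 was at 524 ± 84.7 FPKM and its testis form COX6B2 at 0.095. The normalised CPM of NDUFA4L2, a hypoxia-linked relative of NDUFA4, was 0.323 and 0.0537 in the NC libraries and 0.231 or less in the other 4. These 3 genes, ATP5MGL and UQCRHL were too low to test. The other 103 members (90 nuclear and 13 mitochondrial) were tested, in the same fit as all 13235 genes that passed the filter on low counts.

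Each comparison was read in edgeR's quasi-likelihood test with all 6 libraries in 1 fit, and a gene was called changed where its adjusted p (Benjamini-Hochberg, over all tested genes) was below 0.05. With siGYS1 against NC, 10 of 90 nuclear members fell and 0 rose. That is 11.1%, where 9.24% of all genes fell and 10.4% rose, and the share moved with the libraries and the fit used. The 10 were SDHA, SDHC and SDHD of complex II, NDUFB4, NDUFV3 and the assembly factor NDUFAF1 of complex I, UQCRC2 of complex III, and ATP5F1A, ATP5F1B and ATP5IF1 of ATP synthase. In complex IV 0 of 11 subunits passed, and COX7B had the smallest adjusted p there (log2 fold change -0.31, adjusted p = 0.0914). Sizes were small: no member changed by 1 or more on the log2 scale in any comparison.

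**Figure D1:**
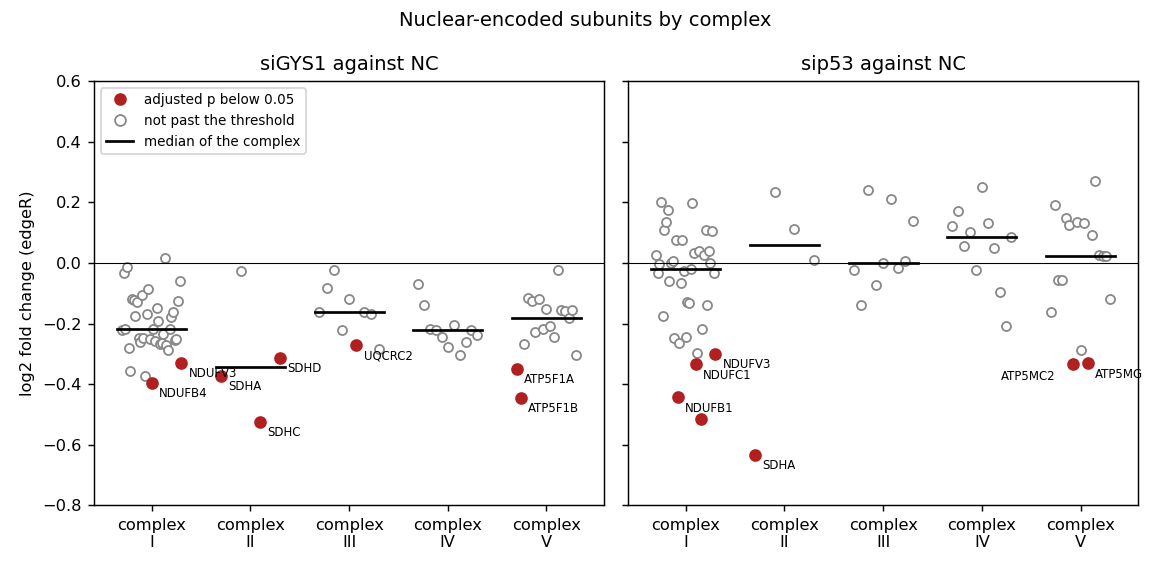
Log2 fold change of each nuclear subunit, estimated with edgeR, by complex, for siGYS1 against NC and sip53 against NC; filled points passed the test, those described in the text are named, and bars are medians. With siGYS1 77 of 78 subunits lie below 0 and 8 passed; with sip53 35 lie below 0 and 7 passed.

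Complex II held the largest share of called subunits with siGYS1, 3 of 4. SDHC (ENSG00000143252, chr1:161314257-161375340, plus strand, GRCh38), a membrane anchor subunit that binds haem and coenzyme Q, stood at 129.6 and 129.3 normalised CPM with NC, 88.89 and 91.24 with siGYS1, and 138.4 and 141.2 with sip53. Both siGYS1 libraries lay below every other library, and both sip53 libraries lay above NC. SDHC was 30.4% lower with siGYS1 (log2 fold change -0.52, SE 0.08, adjusted p = 0.00287), a call kept in 17 of 17 alternatives at values from -0.69 to -0.50. With sip53 it did not pass (0.11, SE 0.08, adjusted p = 0.288), and in the direct contrast siGYS1 was lower than sip53 (-0.63, SE 0.08, adjusted p = 0.000241).

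SDHD (chr11:112086773-112120013, plus strand), the other membrane anchor, had 74.44 and 79.49 normalised CPM with NC, 62.74 and 61.1 with siGYS1, and 77.45 and 77.63 with sip53. The siGYS1 libraries again lay below the other 4. Its log2 fold change was -0.31 (SE 0.09, adjusted p = 0.0322), a call kept in 7 of 17 alternatives. It was not kept with no filter, DESeq2, only the compared groups or length-corrected offsets. Leaving out either NC library, siGYS1 replicate 2 or either sip53 library ended that call (log2 fold changes -0.36 to -0.26, adjusted p 0.0554 to 0.239). Against sip53 the siGYS1 level was lower by a log2 value of -0.32 (adjusted p = 0.0136), a call that leaving out either sip53 library ended (adjusted p 0.0907 to 0.0954).

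SDHA (chr5:218241-256700, plus strand), the flavoprotein that oxidises succinate, was at 289.2 and 311.5 normalised CPM with NC, 222.4 and 241.6 with siGYS1, and 185 and 202.5 with sip53. All 4 knockdown libraries lay below both NC libraries, and those of sip53 were the lowest. With sip53 SDHA was 35.5% lower (log2 fold change -0.63, SE 0.09, adjusted p = 0.000367), a call kept in 17 of 17 alternatives. With siGYS1 it was 22.7% lower (-0.37, SE 0.09, adjusted p = 0.0199), and leaving out NC replicate 2 (-0.32), siGYS1 replicate 1 (-0.31) or either sip53 library (-0.37) ended that call (adjusted p 0.0505 to 0.162). SDHA counts were not whole numbers in any of the 6 libraries. They are estimates in which reads may have been divided between loci, and its values are less certain for that reason.

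SDHB, the iron-sulfur subunit that links SDHA to the membrane, was at 77.51 and 88.29 normalised CPM with NC, 80.02 and 82.7 with siGYS1, and 97.11 and 97.85 with sip53. The NC and siGYS1 libraries overlapped. With siGYS1 SDHB was at a log2 fold change of -0.03 (adjusted p = 0.864), and with sip53 at 0.23 (adjusted p = 0.062). In the direct contrast SDHA was higher with siGYS1 than with sip53 (0.26, adjusted p = 0.0425) and SDHB lower (-0.26, adjusted p = 0.0467). Neither contrast passed when an NC or a sip53 library was left out (adjusted p 0.0583 to 0.291). That of SDHA did not pass without siGYS1 replicate 2 either (0.20, adjusted p = 0.135), nor that of SDHB without siGYS1 replicate 1 (-0.24, adjusted p = 0.0968).

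**Figure D2:**
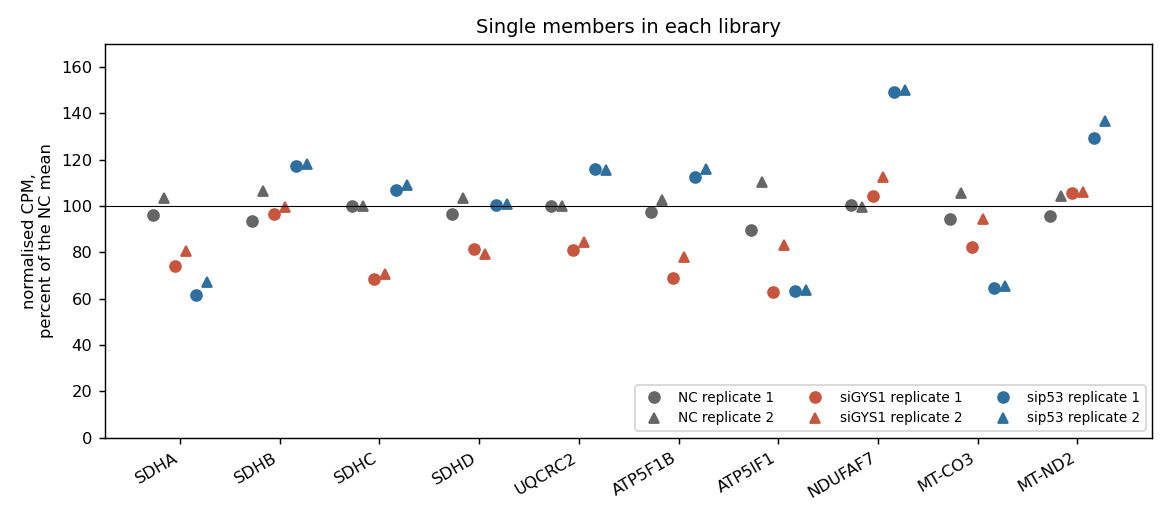
Normalised CPM of 10 members in each library as a percentage of the NC mean; colours are groups and symbols replicates. SDHC, UQCRC2 and ATP5F1B are low in both siGYS1 libraries and at or above NC in both sip53 libraries, while SDHA and ATP5IF1 are below NC in both knockdowns.

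Outside complex II, ATP5F1B (chr12:56638175-56646068, minus strand), the catalytic beta subunit of ATP synthase, was at 789.1 and 828.7 normalised CPM with NC, 557.4 and 631.3 with siGYS1, and 911.8 and 936.9 with sip53. The 3 groups did not overlap. With siGYS1 it was 26.5% lower (log2 fold change -0.44, SE 0.09, adjusted p = 0.00785), and 16 of 17 alternatives kept the call, which leaving out NC replicate 2 ended (-0.41, adjusted p = 0.0616). Against sip53 the siGYS1 level was lower by -0.64 (SE 0.09, adjusted p = 0.000338).

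UQCRC2 (chr16:21952660-21983660, plus strand), a core subunit of complex III, was at 189.6 normalised CPM in both NC libraries, 153.9 and 160.5 with siGYS1, and 220.2 and 218.8 with sip53. Again the groups did not overlap. The fall with siGYS1 (log2 fold change -0.27, SE 0.08, adjusted p = 0.0422) passed in 6 of 17 alternatives and did not pass when any library but siGYS1 replicate 2 was left out (adjusted p 0.11 to 0.206). The contrast of siGYS1 with sip53 passed in 17 of 17 (-0.48, SE 0.08, adjusted p = 0.00104).

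Each of the remaining falls with siGYS1 ended with some single libraries left out and passed with others. ATP5F1A, the alpha subunit of ATP synthase, was at 752 and 854.6 normalised CPM with NC and 586.6 and 674.6 with siGYS1 (log2 fold change -0.35, adjusted p = 0.0336). NDUFB4, an accessory subunit of complex I, was at 119.4 and 142.4 with NC and 90.28 and 108.6 with siGYS1 (-0.40, adjusted p = 0.0422). In both genes NC replicate 2 was the highest and siGYS1 replicate 1 the lowest library of the 4. Without NC replicate 2 ATP5F1A was at -0.25 (adjusted p = 0.248) and NDUFB4 at -0.26 (adjusted p = 0.307), and without siGYS1 replicate 1 they were at -0.25 (adjusted p = 0.119) and -0.27 (adjusted p = 0.133). With either sip53 library left out, neither passed (adjusted p 0.0866 to 0.0979). Both passed without NC replicate 1 and without siGYS1 replicate 2 (-0.52 to -0.44, adjusted p 0.00233 to 0.0358).

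Both comparisons against NC share the NC libraries, so values for the same member are given side by side. NDUFV3 was at 38.38 and 41.65 normalised CPM with NC, 29.5 and 34.15 with siGYS1, and 33.02 and 31.99 with sip53 (log2 fold changes -0.33 and -0.30, adjusted p = 0.0479 and 0.0329). NDUFAF1, an early complex I assembly factor, was at 18.57 and 21.95, 15.21 and 15.51, and 16.25 and 16.51 (-0.40 and -0.31, adjusted p = 0.0364 and 0.0466). All knockdown libraries of both genes lay below NC, but none of the 4 calls held without NC replicate 2 (adjusted p 0.183 to 0.339) or without either sip53 library (0.0794 to 0.186). The NDUFV3 calls were also lost without NC replicate 1 (0.0798 with siGYS1 and 0.0519 with sip53), and with siGYS1 both genes were lost without siGYS1 replicate 1 (0.188 for NDUFV3 and 0.0753 for NDUFAF1).

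ATP5IF1 (chr1:28236109-28246906, plus strand) encodes the peptide that blocks ATP hydrolysis by ATP synthase. It was at 117.4 and 144.9 normalised CPM with NC, 82.44 and 108.8 with siGYS1, and 83.1 and 83.51 with sip53. The 4 knockdown libraries lay below NC, and NC replicate 2 was far above NC replicate 1. With sip53 it was 36.5% lower (log2 fold change -0.65, SE 0.14, adjusted p = 0.00373), in 17 of 17 alternatives. With siGYS1 (-0.46, SE 0.14, adjusted p = 0.0479) leaving out NC replicate 2 (-0.29), siGYS1 replicate 1 (-0.27) or either sip53 library (-0.45) ended the call (adjusted p 0.103 to 0.318).

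As a group, nuclear members were lower with siGYS1 than with NC by a small amount that depended on which libraries were compared. The median log2 fold change of the 90 tested nuclear members was -0.21, against -0.01 over all genes, and 83 of the 90 values were negative, against 51.2% of all genes. Medians by complex were -0.22 for complex I, -0.34 for II, -0.16 for III, -0.22 for IV and -0.18 for V. Relative to the mean of all 6 libraries, the 78 nuclear subunits averaged -0.02 in NC replicate 1, 0.17 in NC replicate 2, -0.26 in siGYS1 replicate 1, 0.00 in siGYS1 replicate 2, 0.05 in sip53 replicate 1 and 0.06 in sip53 replicate 2, on the log2 scale. Of the 78, 71 had their lowest value in siGYS1 replicate 1 and 49 their highest in NC replicate 2. Between single libraries, siGYS1 minus NC averaged -0.25 for the replicates numbered 1 and -0.17 for those numbered 2. For siGYS1 replicate 1 minus NC replicate 2 it was -0.44, and for siGYS1 replicate 2 minus NC replicate 1 it was 0.02.

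**Figure D3:**
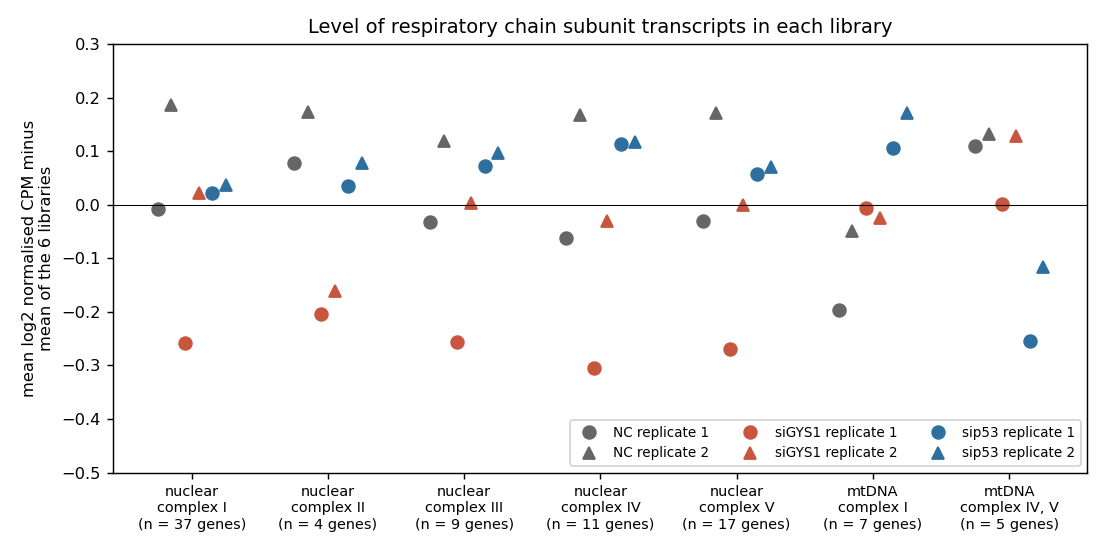
Mean log2 normalised CPM of the subunits of each complex in every library, relative to the mean of the 6 libraries. For complexes I, III, IV and V siGYS1 replicate 1 lies below all other libraries and NC replicate 2 above all others, while for complex II both siGYS1 libraries lie below the other 4.

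Without NC replicate 1, 8 of the 90 fell (8.89%), where 5.475% of all genes did. Leaving out NC replicate 2 gave 1 fall (1.11%, where 3.65% of all genes fell), and leaving out siGYS1 replicate 1 gave 3 (3.33%, where 7.28% fell). Without siGYS1 replicate 2 there were 54 falls (60%), where 12.8% of all genes fell, and without either sip53 library 2 (2.22%, where 5.61% to 5.65% fell). With the replicate number as a block, although no label says that it pairs libraries, 42 fell (46.7%), where 16.1% of all genes did. Without both NC replicate 2 and siGYS1 replicate 1, an alternative added after seeing the data, 2 nuclear members fell and 2 rose (2.22% each, where 7.49% of all genes fell and 7.96% rose), and the median was 0.05. That fit leaves out the NC library with the higher subunit average and the siGYS1 library with the lower one. Its median therefore follows in part from that choice, and the opposite choice was not fitted. Between the libraries left in, siGYS1 replicate 2 minus NC replicate 1 was -0.24 on average over the complex II subunits and 0.03 to 0.04 over those of the other 4 complexes.

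The 2 libraries also differed from the rest in how counts followed transcript length. Over 11172 genes, the deviation of a gene from its mean followed exon length with a Spearman rho of 0.41 in siGYS1 replicate 1 and -0.29 in NC replicate 2, against -0.08 to 0.04 in the other 4, as a description across genes within a library. Nuclear members are short: on the annotated exon length used for this trend their median was 2468.5 bases, against 5064 for all tested genes, and on the length implied by the authors' FPKM 460 against 2477. With offsets that remove the length trend from each library, the median of the nuclear members with siGYS1 was -0.11, with 9 falls and 1 rise. That of complex II was -0.34, as without them, but 2 of its 4 subunits were called instead of 3.

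**Figure D4:**
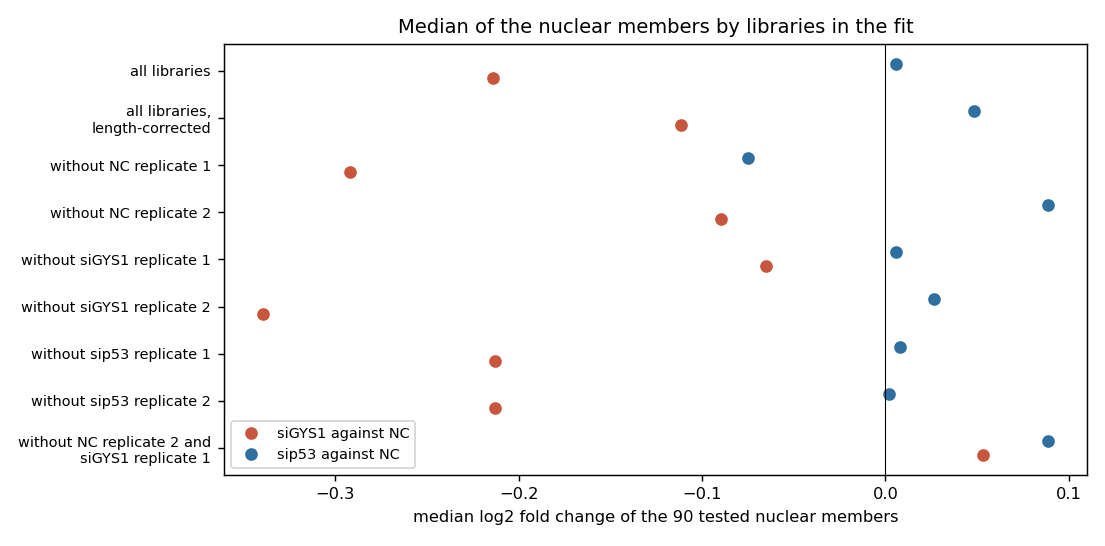
Median log2 fold change of the 90 tested nuclear members against NC, with all libraries, with offsets that remove the length trend, and with single libraries left out. For siGYS1 the median ranges from -0.34 without siGYS1 replicate 2 to 0.05 without NC replicate 2 and siGYS1 replicate 1; for sip53 it ranges from -0.08 to 0.09.

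With sip53 against NC, nuclear members were called less often than all genes. Of 90, 9 fell (10%) and 1 rose (1.11%), while 26.5% of all genes fell and 23.4% rose. The median of the nuclear members was 0.01, against -0.03 over all genes. With offsets that remove the length trend, 11 of 90 fell (12.2%, where 27.9% of all genes did) and 12 rose, where 27.3% of all genes did. The median was then 0.05, and it was 0.09 without NC replicate 2 and siGYS1 replicate 1. The count of 9 falls was 3 without NC replicate 2 or either sip53 library (3.33%, where 16.7% to 19.5% of all genes fell), and 13 without either siGYS1 library (14.4%, where 28.4% to 29.7% fell). The 1 rise became 3 without NC replicate 2, where 16.9% of all genes rose, and 7 without either siGYS1 library, where 26.8% to 28.1% rose.

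In complex I, NDUFB1 (-0.44, adjusted p = 0.026) and NDUFC1 (-0.33, adjusted p = 0.0357), both small accessory subunits, fell with sip53. Leaving out NC replicate 2 (-0.32 and -0.20) or either sip53 library (-0.46 to -0.31) ended both calls (adjusted p 0.105 to 0.275).

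The 1 rise with sip53 was NDUFAF7 (chr2:37231631-37253403, plus strand), a methyltransferase that acts in complex I assembly. It was at 18.89 and 18.68 normalised CPM with NC, 19.59 and 21.15 with siGYS1, and 28.01 and 28.22 with sip53. The sip53 libraries lay above the other 4. NDUFAF7 was 49.6% higher than NC (log2 fold change 0.58, SE 0.09, adjusted p = 0.000755), in 17 of 17 alternatives, and higher than with siGYS1 (log2 fold change of siGYS1 against sip53 -0.46, adjusted p = 0.00324). Its counts were not whole in any of the 6 libraries.

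In complexes III and IV 0 of 20 nuclear subunits passed with sip53. UQCRC2 was nearest in complex III (0.21, adjusted p = 0.0503) and COX6C, a small subunit of cytochrome c oxidase, in complex IV (0.25, adjusted p = 0.152). In complex V the membrane subunits ATP5MG (-0.33, adjusted p = 0.0458) and ATP5MC2 (-0.33, adjusted p = 0.0496) fell. Leaving out NC replicate 2 (-0.18 in both) or either sip53 library (-0.39 to -0.28) ended both calls (adjusted p 0.132 to 0.351).

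Set directly against each other, siGYS1 libraries were lower than sip53 libraries for 18 of 90 nuclear members (20%) and higher for 1, SDHA, where 20.9% of all genes were lower and 22.5% higher. The median of the nuclear members was -0.18, against 0.01 over all genes. Complex IV had 6 of its 11 subunits among the 18, with COX6C at 60.09 and 75.61 normalised CPM with siGYS1 and 98.09 and 97.39 with sip53 (log2 fold change -0.53, SE 0.14, adjusted p = 0.0113). COX6C did not overlap between these groups but was not called with either sip53 library left out (adjusted p = 0.0752 and 0.0703), and was at -0.37 without siGYS1 replicate 1. The 18 became 7 without siGYS1 replicate 1 (7.78%, where 19.2% of all genes were lower), 56 without siGYS1 replicate 2 (62.2%, where 22.75% were) and 4 without either sip53 library (4.44%, where 11.9% to 12.35% were).

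Promoters of the nuclear members were searched for motifs of 3 factors long linked to respiratory chain genes: the NRF1 motif (GCGCA, any base, GCGC), the ETS motif CCGGAAG bound by GABPA among others, and the YY1 motif AAGATGGC, on both strands, from 250 bases before to 50 after the start (RefSeq, GRCh38.p14). Of 95 nuclear members, 75 matched an entry. An NRF1 match was present in 22.7% of the 75, against 6.29% of all 27305 RefSeq promoters. An ETS match was present in 28% against 10.7%, and a YY1 match in 14.7% against 3.03%. The RefSeq promoters were not limited to genes expressed here, while the median tested nuclear member stood at percentile 78.35 of tested genes by level. Whether other genes at such levels hold more matches was not tested. At least 1 of the 3 was found in 53.3% of members and 17.9% of all promoters, with 0 overlapping matches in members. Complex IV had 0 of 9 promoters with an NRF1 match and 5 of 9 with an ETS match, while complex III had 4 of 7 and 3 of 7. Of the 10 members that fell with siGYS1, 8 had an entry and 3 of these held a match. These 3 promoters are shown, all on the plus strand, with NRF1 matches in capitals and, in SDHD, the ETS match (CTTCCGG as read on this strand) as the second capital run.
SDHA, chr5:218070-218369: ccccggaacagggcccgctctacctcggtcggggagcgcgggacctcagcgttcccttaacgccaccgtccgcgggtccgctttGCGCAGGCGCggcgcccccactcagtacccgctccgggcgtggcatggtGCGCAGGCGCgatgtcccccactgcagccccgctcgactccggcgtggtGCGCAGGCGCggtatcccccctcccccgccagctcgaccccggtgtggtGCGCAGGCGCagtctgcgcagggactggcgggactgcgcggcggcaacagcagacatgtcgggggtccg
SDHD, chr11:112086623-112086922: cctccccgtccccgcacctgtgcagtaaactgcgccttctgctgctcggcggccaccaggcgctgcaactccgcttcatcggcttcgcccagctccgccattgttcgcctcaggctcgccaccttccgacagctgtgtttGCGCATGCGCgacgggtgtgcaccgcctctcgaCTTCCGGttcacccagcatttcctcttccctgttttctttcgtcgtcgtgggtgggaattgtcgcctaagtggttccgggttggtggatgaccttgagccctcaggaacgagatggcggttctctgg
NDUFB4, chr3:120596086-120596385: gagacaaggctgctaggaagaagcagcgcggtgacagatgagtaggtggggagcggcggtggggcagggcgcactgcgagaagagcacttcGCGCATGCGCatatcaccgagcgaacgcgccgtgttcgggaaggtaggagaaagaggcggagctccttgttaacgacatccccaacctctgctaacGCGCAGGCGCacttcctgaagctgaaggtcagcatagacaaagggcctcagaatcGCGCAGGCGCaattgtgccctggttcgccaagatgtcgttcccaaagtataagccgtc
SDHA carried 4 NRF1 matches, SDHD 1 and NDUFB4 3. A match is a description of the letters and not a bound site. Of the 8 members with an entry that fell with sip53, 2 held a match.

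Transcripts of the mitochondrial genome moved in both directions with sip53: 4 of 13 rose (30.8%) and 3 fell (23.1%), against 23.4% and 26.5% of all genes, so that 7 changed, where 49.9% of all genes did. All 4 rises were complex I subunits (MT-ND1, MT-ND2, MT-ND5 and MT-ND6), and the 3 falls were MT-CO1 and MT-CO3 of complex IV and MT-ATP6 of complex V. All 7 complex I mRNAs had positive values and all 5 complex IV and V mRNAs negative ones in this fit. Some uncalled ones changed sign over the alternatives. MT-ATP8 ranged from -0.32 to 0.13, MT-ND4 from -0.02 to 0.23 and MT-ND4L from -0.03 to 0.17. With siGYS1, 1 of 13 changed (7.69%), against 19.7% of all genes: MT-CO2 fell. Near-identical copies of parts of these genes lie in the nuclear genome, and the labels do not say how reads shared with them were assigned.

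MT-CO3 was at 7928 and 8867 normalised CPM with NC, 6908 and 7917 with siGYS1, and 5411 and 5493 with sip53. The sip53 libraries lay below the other 4, while NC and siGYS1 met at 7928 and 7917. With sip53 the log2 fold change was -0.62 (SE 0.09, adjusted p = 0.000415), a call kept in 16 of 16 alternatives, and siGYS1 was higher than sip53 by 0.44 (SE 0.09, adjusted p = 0.00351). With siGYS1 against NC it did not pass (-0.18, adjusted p = 0.192).

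MT-CO1, which carries the site where oxygen is reduced, was at 17560 and 18500 normalised CPM with NC, 15610 and 16770 with siGYS1, and 13530 and 13510 with sip53. Groups did not overlap. The sip53 value was -0.42 (SE 0.07, adjusted p = 0.00136), called in 14 of 16 alternatives. With siGYS1 against NC MT-CO1 did not pass, nor did it in any of the 16 alternatives (log2 fold changes -0.22 to -0.04). MT-CO2, which takes electrons from cytochrome c, was at 4386 and 5161 with NC, 3576 and 3989 with siGYS1, and 4089 and 4558 with sip53. Here the siGYS1 libraries were the lowest, and NC and sip53 overlapped. Its fall with siGYS1 (-0.34, SE 0.10, adjusted p = 0.047) held in 5 of 16 alternatives. Leaving out siGYS1 replicate 1 (-0.26), NC replicate 2 (-0.21) or either sip53 library (-0.33) ended it (adjusted p 0.0882 to 0.304).

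MT-ND2 was at 2969 and 3246 normalised CPM with NC, 3285 and 3291 with siGYS1, and 4015 and 4248 with sip53. The sip53 libraries lay above the other 4. Its log2 fold change with sip53 was 0.41 (SE 0.08, adjusted p = 0.00211), in 14 of 16 alternatives, and siGYS1 was lower than sip53 (-0.33, adjusted p = 0.00828), a contrast lost without sip53 replicate 2 (-0.29, adjusted p = 0.0947). MT-ND5 rose by 0.35 with sip53 (adjusted p = 0.0048), lost without sip53 replicate 2 (0.28, adjusted p = 0.0732). MT-ND1 (0.33, adjusted p = 0.0156) did not pass with NC replicate 1 (0.21) or either sip53 library (0.31 to 0.35) left out, at adjusted p 0.0734 to 0.118. MT-ND6 (0.31, adjusted p = 0.0243) did not pass with NC replicate 1 (0.25) or sip53 replicate 2 (0.20) left out, at adjusted p 0.154 and 0.249. MT-ATP6 (-0.28, adjusted p = 0.0195) did not pass with NC replicate 2 or either sip53 library left out (-0.31 to -0.24, adjusted p 0.0746 to 0.156). MT-ND6 is the sole mRNA of the opposite strand, and whether counting used strand is not given, so reads from its antisense cannot be told apart from its own. Limma on FPKM called 1 of the 13 with sip53, against 7 in edgeR.

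**Figure D5:**
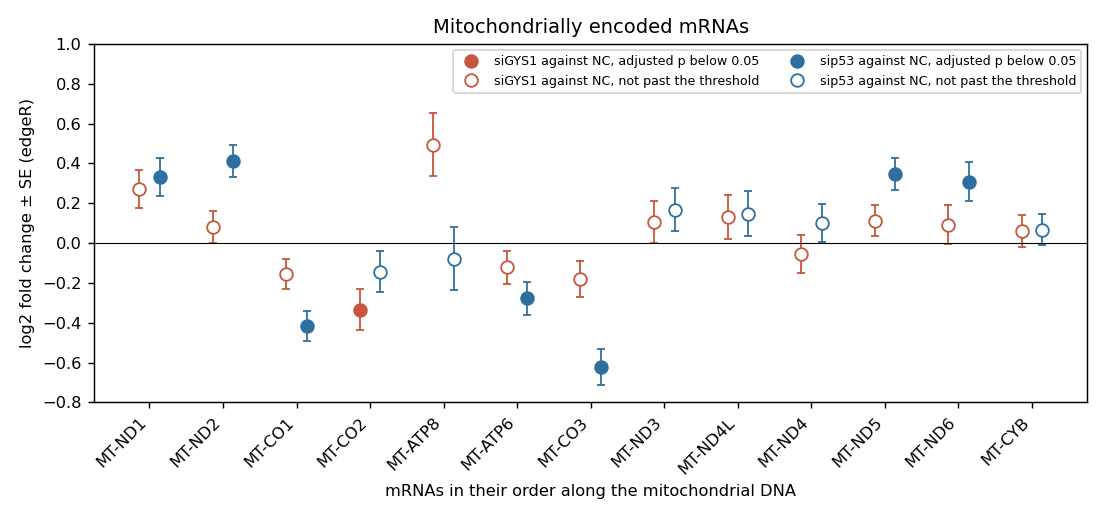
Log2 fold change with its SE for the 13 mitochondrially encoded mRNAs in genome order, from edgeR; filled points passed the test. With sip53 the complex IV and V mRNAs from MT-CO1 to MT-CO3 lie below 0 and the complex I mRNAs on either side lie above 0.

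Shares of the mitochondrial reads, which do not depend on library size, placed siGYS1 between NC and sip53 for complexes IV and I. Single mRNAs could differ from this order, as MT-CO2 did, which was lowest with siGYS1. Complex IV mRNAs took 56.1% and 55.8% of these reads with NC, 51.3% and 52.3% with siGYS1, and 46.3% and 45.7% with sip53. Complex I mRNAs took 29.6% and 30.7%, 34.3% and 33.1%, and 39.4% and 39.8%. The 3 groups did not overlap in either share, but both are parts of the same total and so are not independent. The ratio of MT-CO3 to MT-ND2 reads was 2.67 and 2.73 with NC, 2.10 and 2.41 with siGYS1, and 1.35 and 1.29 with sip53. With 2 libraries in each group an exact two-sided permutation test cannot give a p below 0.333, so these shares carry no test.

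Per kilobase of annotated length, MT-CO1 led in all groups, at 11690 ± 431 normalised CPM per kb with NC (SD, n = 2), 10500 with siGYS1 and 8768 ± 10.6 with sip53. MT-CO3 came next at 10710 ± 847, 9455 and 6954 ± 73.9, and MT-CO2 followed at 6979, 5530 and 6321. MT-ND6 was lowest in all groups, at 461 ± 28.2 with NC. MT-ATP6 was above MT-ND4 with NC (5431 and 4656) and siGYS1 (4995 and 4488), and below it with sip53 (4482 and 4999). With NC the neighbours MT-CYB, MT-ND1 and MT-ND2 overlapped (3409, 3351 and 2982), with siGYS1 MT-CO2 overlapped MT-ATP6 and MT-ND4L overlapped MT-ND3, and with sip53 0 neighbours did. The libraries of the other neighbours did not overlap.

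MT-ATP8, the shortest mRNA of this genome, shows why the deposited FPKM were not used to rank these genes. Its 207 bases (chrM:8366-8572, plus strand, GENCODE 29 transcript) are shown with the 46 bases shared with the start of MT-ATP6 in capitals.
MT-ATP8: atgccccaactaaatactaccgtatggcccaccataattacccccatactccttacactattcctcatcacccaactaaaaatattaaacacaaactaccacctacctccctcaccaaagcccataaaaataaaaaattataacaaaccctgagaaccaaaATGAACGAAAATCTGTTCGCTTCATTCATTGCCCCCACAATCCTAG
Its median implied length in the FPKM was 4 bases, against 207 annotated, and its FPKM with NC averaged 44890, the highest of the 13. Yet it gave 0.252% to 0.469% of the mitochondrial reads while taking 4.33% to 7.42% of all TPM. In normalised CPM it was at 193.1 and 147 with NC, 238.4 and 240.7 with siGYS1, and 136.2 and 186 with sip53. The siGYS1 libraries were the highest. It did not pass against NC (0.49, SE 0.16, adjusted p = 0.0518), but was higher with siGYS1 than with sip53 (0.57, SE 0.16, adjusted p = 0.015), which did not pass with sip53 replicate 1 left out (0.36, adjusted p = 0.154). Both mRNAs lie on 1 bicistronic transcript, and how reads in the shared bases were assigned is not given.

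Other genes of the pathway were read from lists of assembly factors, electron carriers, fuel entry, regulators, mitochondrial gene expression and ATP export. Their counts stand beside the shares over all genes, of which 9.24% fell and 10.4% rose with siGYS1 and 26.5% fell and 23.4% rose with sip53. Of 52 assembly factors, 3 fell (5.77%) and 1 rose (1.92%) with siGYS1, and 9 fell (17.3%) and 5 rose (9.62%) with sip53, with medians of -0.09 and -0.04. All 4 shares lay below those over all genes. FOXRED1, a complex I assembly factor, fell in both (-0.53, adjusted p = 0.00473, and -0.46, adjusted p = 0.00268), and SURF1, needed for complex IV, was at 43.28 and 46.91 normalised CPM with NC, 28.69 and 36.1 with siGYS1 and 28.64 and 27.13 with sip53. SURF1 fell by 0.69 on the log2 scale with sip53 (adjusted p = 0.000978). Its fall with siGYS1 (-0.48, adjusted p = 0.0204) ended with NC replicate 2 (-0.42), siGYS1 replicate 1 (-0.32) or either sip53 library (-0.48) left out (adjusted p 0.0535 to 0.131). With sip53 COX16, which helps insert MT-CO2, fell by 0.86 (adjusted p = 0.000172) and TTC19, a complex III factor, by 0.76 (adjusted p = 8.68e-05). Neither passed with siGYS1 (-0.11 and 0.10, adjusted p = 0.486 and 0.42).

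Of 22 genes of coenzyme Q synthesis and electron transfer, 3 fell (13.6%) and 0 rose with siGYS1, and 8 fell (36.4%) and 4 rose (18.2%) with sip53. PDSS2, which makes the side chain of coenzyme Q, went from 34.56 and 33.97 normalised CPM with NC to 11.01 and 11.2 with sip53, and was at 31.4 and 33.2 with siGYS1. Its fall with sip53 was the largest of the list (-1.63, SE 0.10, adjusted p = 1.79e-06). COQ3, a methyltransferase of the same pathway, fell too (-0.94, adjusted p = 0.000387), and SQOR, which passes electrons from sulfide to coenzyme Q, rose by 0.87 (adjusted p = 5.84e-05). Neither passed with siGYS1 (-0.04 and 0.11, adjusted p = 0.87 and 0.414). The coenzyme Q factor COQ8B was at 14.05 and 15.03 normalised CPM with NC, 8.76 and 9.04 with siGYS1 and 9.39 and 11.2 with sip53. It fell in both (-0.71 and -0.50, adjusted p = 0.00611 and 0.0101), and the siGYS1 and sip53 levels did not differ past the threshold (-0.21, adjusted p = 0.24). Leaving out NC replicate 2 (-0.45) or sip53 replicate 1 (-0.38) ended the sip53 call (adjusted p 0.064 to 0.105).

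Among 27 genes of the citric acid cycle and pyruvate entry, 4 fell and 4 rose (14.8% each) with siGYS1, and 5 fell (18.5%) and 7 rose (25.9%) with sip53. PDK1, a kinase that shuts pyruvate dehydrogenase, was at 34.45 and 34.08 normalised CPM with NC, 61.82 and 52.01 with siGYS1 and 90.13 and 78.49 with sip53 (log2 fold changes 0.73 and 1.30, adjusted p = 0.00278 and 1.77e-05). Pyruvate carboxylase, PC, rose by 0.79 and 1.26 (adjusted p = 0.00231 and 2.53e-05), and PDK4 by 0.32 and 1.44 (adjusted p = 0.0405 and 3.5e-06), where the siGYS1 call of PDK4 passed in 7 of 17 alternatives. MPC1, a subunit of the mitochondrial pyruvate carrier, fell in both (-0.61 and -0.45, adjusted p = 0.0112 and 0.0157). Neither call passed with NC replicate 2 left out (-0.57 and -0.41), nor that of sip53 with sip53 replicate 2 left out (-0.36), at adjusted p 0.0705 to 0.134.

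Of 11 tested regulators of mitochondrial biogenesis, 0 fell and 4 rose (36.4%) with siGYS1, and 3 fell and 3 rose (27.3% each) with sip53. The coactivator PPARGC1A was at 23.74 and 22.27 normalised CPM with NC, 37.1 and 33.37 with siGYS1 and 29.97 and 25.42 with sip53. It rose with siGYS1 (0.61, SE 0.11, adjusted p = 0.00512) in 17 of 17 alternatives and did not pass with sip53 (0.27, adjusted p = 0.072). Its relative PPARGC1B rose in both (0.79 and 0.76, adjusted p = 0.016 and 0.00647), and siGYS1 against sip53 did not pass (0.03, adjusted p = 0.919). With NC replicate 2 left out the siGYS1 rise did not pass (0.53, adjusted p = 0.109). GABPB2, a partner of the ETS factor GABPA, fell with sip53 (-1.08, adjusted p = 0.00047) and did not pass with siGYS1 (0.12, adjusted p = 0.593). PERM1 was called higher in both comparisons at 1.43 normalised CPM or less. Its siGYS1 value (2.45) was 1.80 to 3.67 with single libraries left out, and leaving out NC replicate 2 ended that call (adjusted p = 0.156).

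Of 36 genes of mitochondrial DNA maintenance and expression, 2 fell (5.56%) and 3 rose (8.33%) with siGYS1, and 6 fell (16.7%) and 7 rose (19.4%) with sip53, all 4 shares below those over all genes. TBRG4, an RNA-binding protein of the FASTK family, was at 69.65 and 70.31 normalised CPM with NC, 36.12 and 44.36 with siGYS1 and 65.18 and 69.29 with sip53. It fell with siGYS1 (-0.80, SE 0.11, adjusted p = 0.0015) and did not pass with sip53 (-0.06, adjusted p = 0.681). TFAM, which packs and transcribes mitochondrial DNA, rose with siGYS1 (0.44, adjusted p = 0.00878), not without NC replicate 2 (0.40, adjusted p = 0.0935), and was at 0.01 with sip53 (adjusted p = 0.909). The translation factor MTIF3 fell in both (-0.64 and -0.51, adjusted p = 0.00491 and 0.00441), and FASTKD1 rose with sip53 (0.50, adjusted p = 0.00141) and did not pass with siGYS1 (0.24, adjusted p = 0.0966).

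Of 9 tested genes of ATP and ADP exchange and uncoupling, 1 fell and 1 rose (11.1% each) with siGYS1, and 3 fell and 3 rose (33.3% each) with sip53. UCP2, an inner membrane carrier, was at 91.56 and 99.56 normalised CPM with NC, 53.92 and 63.11 with siGYS1 and 50.71 and 48.04 with sip53 (-0.71 and -0.95, adjusted p = 0.00198 and 6.9e-05). VDAC1, the main pore of the outer membrane, rose by 0.46 and 0.82 (adjusted p = 0.00604 and 5.1e-05). SLC25A4, the heart and muscle form of the ATP and ADP carrier, rose with sip53 from 24.01 and 25.33 to 43.63 and 46.15 normalised CPM (0.86, adjusted p = 0.000105) and was at -0.06 with siGYS1 (adjusted p = 0.707). UCP3 was called lower with sip53 at 0.725 normalised CPM or less in every library, a call that ended with NC replicate 1 or either sip53 library left out (adjusted p 0.0544 to 0.179).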

How the data were processed

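Poly(A) RNA libraries of TOV21G were sequenced, per the labels' protocols, which are worded in general terms. The authors deposited 1 table of 16910 human gene rows with FPKM, TPM, an expected count and a normalized count per library. The deposited expected counts are estimates, with 16.8% to 18.1% of values per library not whole (tolerance 1e-09). The authors' TPM and FPKM use an effective length per gene, read here from the ratio of count to FPKM and library size. The submitters' processing notes name edgeR, DESeq2, Salmon, STAR and other tools without roles, and the build mm10, although the gene identifiers are human. The tool that made the table is not stated.

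Counts were rounded and fitted in edgeR 4.0.16 (R 4.3.3): filterByExpr (minimum count 10, 3675 genes removed), TMM factors, glmQLFit and glmQLFTest with group as the sole term and 3 residual degrees of freedom. Each SE is the size of the log2 fold change over the root of its F statistic. Alternatives were RLE factors, no filter, DESeq2 1.42.0, limma 3.58.1 on log2 FPKM (pseudocounts 1 and 0.1), only the compared groups, a replicate block, length-corrected offsets (lowess, span 0.3), mitochondrial rows left out, and each library left out. The edgeR procedure was also run on simulated counts with known changes and a single spread for all genes. That simulation held no length trend and no difference shared by replicates. It therefore cannot show how calls hold under either. Coordinates are from GENCODE 29, and promoters from RefSeq.

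Members and lists were chosen with earlier results of these data known. Named genes are complex II, all mitochondrial mRNAs, up to 4 called subunits a complex and direction (or that with the smallest p), called assembly factors, members called in both knockdowns, up to 4 each way of siGYS1 against sip53, isoform pairs, and up to 3 called genes per list and comparison. Not every gene taken by this rule, nor every marker, is reported here. DCN, COL1A2 and the highest and lowest subunits by FPKM were chosen after their values were seen.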

Additional observations from a re-analysis of the deposited data

How the results depend on the processing

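Counts of nuclear members moved most with the libraries and the fit. With single libraries left out, siGYS1 against NC gave 1 to 54 falls, 0 to 2 rises and 0 to 3 changed mitochondrial mRNAs, sip53 against NC 3 to 13, 1 to 21 and 3 to 9, and siGYS1 against sip53 4 to 56 lower, 0 to 10 higher and 2 to 8. These ranges include the fit without NC replicate 2 and siGYS1 replicate 1. With siGYS1 against NC, falls numbered 3 with no filter, 6 with DESeq2 and 2 with only the compared groups, and changed mitochondrial mRNAs 0 with no filter, limma (either pseudocount) or only the compared groups, 3 with DESeq2 and 2 with length-corrected offsets, which gave 1 rise. With sip53 against NC, falls numbered 3 with no filter and 5 with DESeq2. Rises numbered 3 with RLE factors, 2 with no filter, DESeq2 or mitochondrial rows left out, 8 with only the compared groups and 12 with length-corrected offsets, and limma called 1 mitochondrial mRNA. Between the knockdowns, limma gave 9 lower, 3 higher and 0 mitochondrial mRNAs. The 1 higher member became 0 with no filter, DESeq2 or only the compared groups, and 3 with length-corrected offsets.

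Replicate numbers are shared by the groups but no label says that they pair libraries. In each group the log2 difference between replicate 1 and replicate 2 was taken for each gene. Over 11172 genes these differences correlated at 0.59 (NC and siGYS1), 0.12 (NC and sip53) and 0.26 (siGYS1 and sip53). NC and siGYS1 thus shared part of the difference between their replicates, which the main fit does not model. Its cause was not tested. With a replicate block, siGYS1 against NC gave 42 falls (46.7% of nuclear members, where 16.1% of all genes fell) and 3 mitochondrial changes, sip53 against NC 16 falls (17.8%, where 31.3% fell) and 9 rises (where 28.3% rose), and siGYS1 against sip53 41 lower (45.6%, where 26.6% were) and 3 higher. The block with length-corrected offsets gave 30 falls, 1 rise and 9 mitochondrial changes with siGYS1, 16 and 17 with sip53, and 38 lower and 9 higher between the knockdowns. Of the members called in each comparison (11, 17 and 24), 0 changed sign in any alternative. With 2 libraries a group, no result can be told from a difference between single cultures. Leaving out mitochondrial rows gives no value for those mRNAs.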
